A study of Homo sapiens with 6 samples.

Results

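The genes described here are the translation factors and aminoacyl-tRNA synthetases measured in the Jurkat line, which grew from a human T-cell leukaemia, after siRNA against the NF-kB subunit p65 (gene RELA) or against ribosomal protein S3 (RPS3). They were all genes whose platform symbol starts with EIF or EEF, or consists of 1 or 2 letters followed by ARS and at most a final 1 or 2, and that had a value on at least 2 of the 3 arrays of each siRNA. The array carried 37 such genes and all 37 passed, 26 initiation or elongation factors and 11 synthetases, among 8797 features tested (4393 of them with a gene symbol). They were read by 77 probes, from 1 probe for 19 genes to 9 probes for EEF1A1. EIF1AY, a gene on the Y chromosome, is included in the counts and not described singly.

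The study asked what RPS3, described in its title as a component of p65-containing complexes, and p65 each do for gene expression in stimulated T cells. Each of 6 two-colour arrays set RNA of cells given p65 siRNA (3 arrays) or RPS3 siRNA (3 arrays), labelled with Cy5, against RNA of cells given nonspecific control siRNA, labelled with Cy3. Every cell sample, controls included, had been stimulated through the T cell receptor by anti-CD3/CD28 at a labelled dose of 1 ug, for 1 h, 3 h or 6 h, and each siRNA had 1 array per time. All values below are log2 ratios of siRNA over control, so 0 means no difference from the control at that time, and they carry no information on how abundant a transcript was. No unstimulated sample was analysed here, no dye swap is named, and the sources used here give no siRNA sequences. In a ratio from bulk RNA, fewer cells expressing a gene and less of its RNA per cell cannot be told apart.

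Protein synthesis starts when eIF2 delivers the initiator tRNA to the small ribosomal subunit, of which RPS3 is part, and the eIF4 factors bring that subunit to the mRNA cap while eIF3 holds the assembly together. EIF5 triggers hydrolysis of the GTP on eIF2 once the start codon is found, eIF2B recharges eIF2, and eEF1 and eEF2 then drive elongation. Aminoacyl-tRNA synthetases load each tRNA with its amino acid, in the cytosol or in mitochondria. T cell stimulation is known to raise the output of this machinery as cells prepare to grow, and the kinases that phosphorylate eIF2 lower it under stress while favouring ATF4, an activator of many synthetase genes.

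The RPS3 probe read 0.11, 0.01 and 1.11 on the p65 siRNA arrays at 1, 3 and 6 h, and -2.50, -2.53 and -1.44 on the RPS3 siRNA arrays. RELA had a mean of -0.49 with p65 siRNA and of -0.54 with RPS3 siRNA, a difference of -0.05 with an SE of 0.16, so the transcript that p65 siRNA targets lay below the control with both. The arrays held values for 12946 to 14423 of 15246 probes, and the SD of an array's values ran from 0.255 to 0.513. Over all probes, the correlation between arrays was 0.688 for the pair at 6 h and -0.224 for p65 siRNA at 1 h against RPS3 siRNA at 6 h. It was 0.458 for p65 siRNA at 1 h against RPS3 siRNA at 3 h, the only arrays whose experiment ID numbers form a series apart from the other 4. Among those 4 it was 0.471 for p65 siRNA at 3 h against RPS3 siRNA at 1 h. Apart from that pair and the pair at 6 h, it ran there from -0.207 to 0.0147. These correlations are descriptions, since probes are not independent replicates. Jurkat marker genes could not be checked for presence, since ratios hold no levels.

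Promoter sequences show how these genes divide by what lies around their transcription start. RefSeq windows on GRCh38.p14, from 250 bases before to 50 after a transcription start, were found for 30 of the 37 genes. The 7 without a window were EIF2S2, EIF3E, EIF3H, EIF4EBP1, EEF1D, EEF2KMT and LARS1. All counts of members with a match below are out of the 30. Both strands were searched for the core of the amino acid response element, TGATGNAA, the site known to bind ATF4 with a C/EBP partner. It occurred in 6 of 10 synthetases with a window and in 0 of 20 factors, against 3.62% of 35116 windows and 3.6% of 3588 tested genes with a window. The 6 stretches are shown on the strand of the gene with the core, or its reverse complement, in capitals.
AARS1, chr16:70289676-70289703, minus strand: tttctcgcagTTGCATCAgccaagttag
GARS1, chr7:30594835-30594862, plus strand: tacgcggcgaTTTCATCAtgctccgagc
IARS1, chr9:92293693-92293720, minus strand: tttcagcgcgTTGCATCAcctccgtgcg
NARS1, chr18:57621805-57621832, minus strand: ctacgctctcTGATGCAAcgccggaatc
TARS1, chr5:33440957-33440984, plus strand: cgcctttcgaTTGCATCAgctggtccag
YARS2, chr12:32756077-32756104, minus strand: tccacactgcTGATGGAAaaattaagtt

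YARS2 was the only purely mitochondrial enzyme among the 6. The core began 2 bases after the start in TARS1 and 14 after it in NARS1, and before the start in the others. A match is a run of letters and not a shown site, and these windows were not measured in the study.

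The second set carries a C at the start followed by pyrimidines, at least 5 in all, the kind of start known from mRNAs of the ribosome and its factors whose translation follows growth signals. It was found in 3 members, all factors, against 7.78% of tested genes with a window, and the run is in capitals.
EEF1A1, chr6:73521008-73521052, minus strand: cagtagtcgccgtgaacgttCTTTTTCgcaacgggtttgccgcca
EEF1B2, chr2:206159875-206159919, plus strand: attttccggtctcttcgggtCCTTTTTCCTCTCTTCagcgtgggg
EIF3M, chr11:32583811-32583855, plus strand: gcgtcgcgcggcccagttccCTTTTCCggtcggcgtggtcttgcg

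The third set holds the core of the interferon-stimulated response element, GAAANNGAA, in 7 members, against 10.8% of tested genes with a window. It is shown for WARS1, the tryptophanyl-tRNA synthetase, and EIF2AK2, the kinase PKR, both known to be induced by interferon.
WARS1, chr14:100375384-100375412, minus strand: tttcagaaggGAAACTGAAagaaagaggg
EIF2AK2, chr2:37156968-37156996, minus strand: agtccaagggGAAAACGAAactgagaacc

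The other 5 members with this core were EEF1A1, EIF3C, EIF6, GARS1 and IARS1. In EEF1A1 the match overlapped the pyrimidine run shown above, and that was the only overlap between matches of different motifs in these genes. The E-box CACGTG, bound by MYC, was in 6 members (EEF2K, EIF2AK2, EIF4E, EIF4G1, EIF4H and IARS1), against 12.8% of tested genes with a window. A match to the NF-kB consensus was in 1 member, HARS2, against 19.0%. EIF5 had 2 windows, and none of the 5 motifs had a match there (0 matches).

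Taken as a whole, the 37 genes had medians slightly above 0 with both siRNAs, and none passed the test in any comparison. With p65 siRNA, 25 of 37 means were above 0, with a median of 0.09, where 55.8% of all tested features were above 0 with a median of 0.02. That lean rests on the array at 1 h: without it, 21 of 37 were above 0 and the member median was 0.02, against 0.03 for all features. With RPS3 siRNA, 25 of 37 were again above 0, with a median of 0.10, where 54.1% of all features were above 0 with a median of 0.02. Both siRNAs were read against RNA of cells given control siRNA, and a shift in controls shared by both would enter both. Whether they shared the same control RNA is not stated. The members above 0 on every measured array were 7 with p65 siRNA and 14 with RPS3 siRNA, while 2 and 1 were below 0 on every array. Among all features, 14.3% and 18% were above 0 on every array, and 11.4% and 16% were below. The SD of a member over its 3 arrays had a median of 0.253 with p65 siRNA and 0.214 with RPS3 siRNA.

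**Figure D1:**
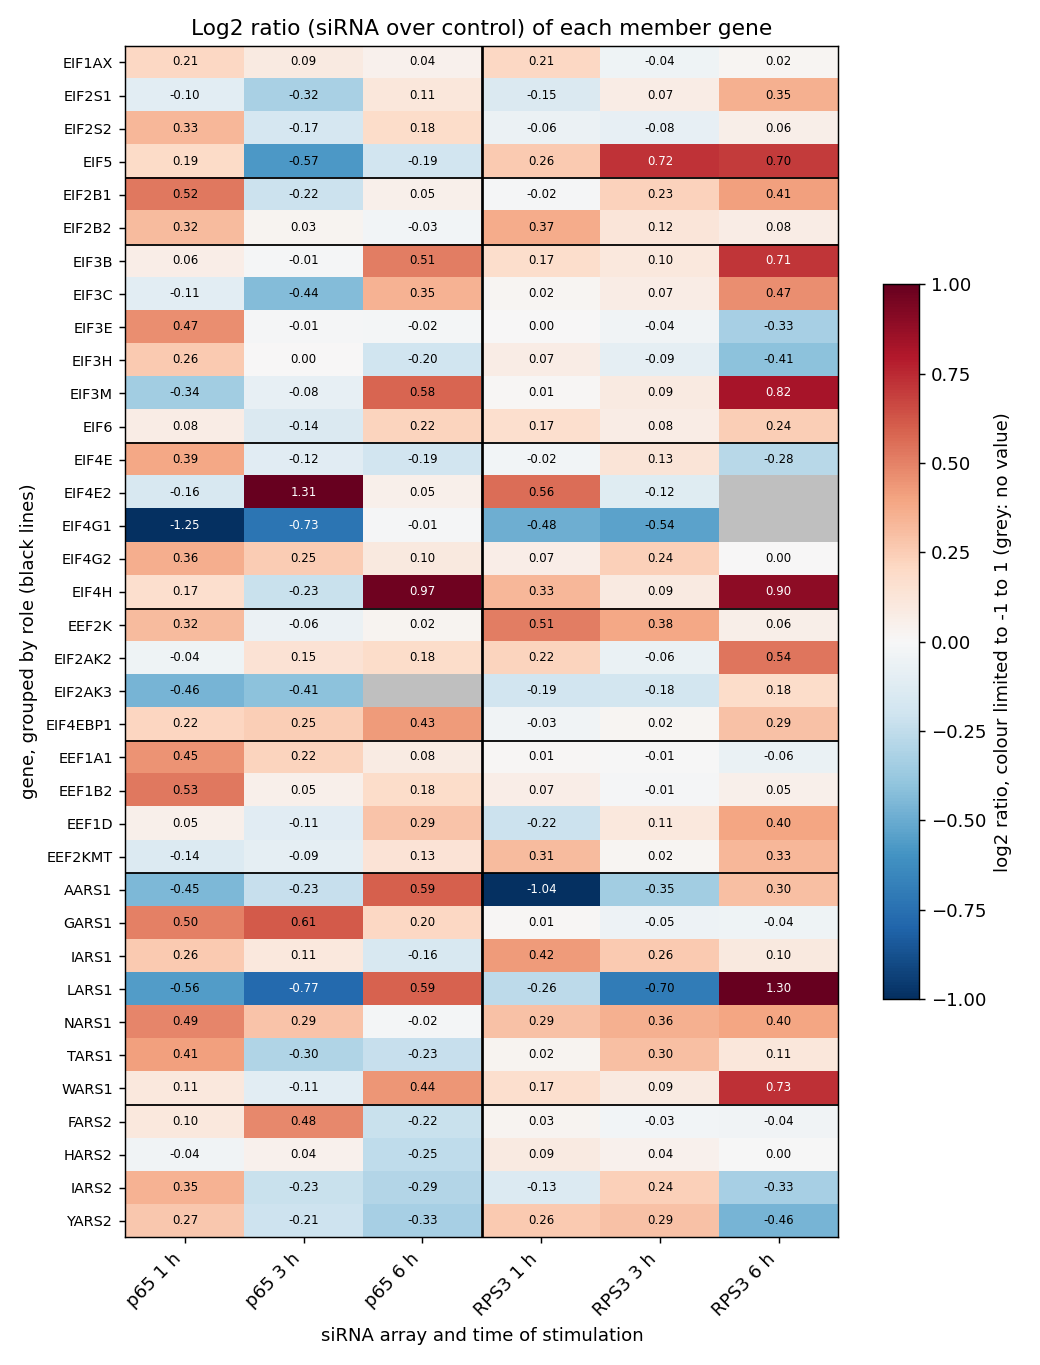
Log2 ratio of siRNA over control for 36 member genes (rows, grouped by role) on the 6 arrays (columns, by siRNA and hours of stimulation), with each value printed in its cell and grey cells for blanks. Values ran from -1.25 for EIF4G1 with p65 siRNA at 1 h to 1.31 for EIF4E2 with p65 siRNA at 3 h, and the column of p65 siRNA at 3 h held the most negative values.

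Within a siRNA, the level of the group varied from array to array. The member median was 0.21, -0.08 and 0.08 with p65 siRNA at 1, 3 and 6 h, and 0.03, 0.07 and 0.11 with RPS3 siRNA. The array of p65 siRNA at 1 h held the highest value of 12 of the 37 genes, where it held that of 17.5% of all features. The array of p65 siRNA at 3 h held the lowest value of 12, where it held that of 21.7% of all features. RPS3 siRNA at 6 h held the highest value of 11, against 21.5%. With 1 array per siRNA and time, the array and the time cannot be told apart.

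The limma test with Benjamini-Hochberg adjustment over all 8797 features found 0 features past 0.05 (0%) for p65 siRNA, for RPS3 siRNA, for their difference, for the mean of all arrays and for the slope over time. At an unadjusted p under 0.05, p65 siRNA had 2 members above 0 (GARS1, EIF4EBP1) and 2 below (EIF4G1, EIF2AK3), against 2.65% and 2.41% of all features. RPS3 siRNA had 3 above (EIF5, NARS1, EEF2K) and 0 below, against 3.73% and 3.97%. The difference between the siRNAs had 1 member higher with RPS3 siRNA (EIF5) and 1 lower (GARS1), against 1.1% and 1.25%. The mean of all 6 arrays had 3 above (NARS1, GARS1, EIF4EBP1) and 2 below (EIF4G1, EIF2AK3), against 5.48% and 4.69%. Each of these counts is a few genes, so the shares carry little weight. The labels do not say whether different arrays had different cultures behind them. The p-values therefore measure the spread between these arrays, which may be technical, with the times standing as replicates of a siRNA.

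Among the factors that find the start codon, EIF5 gave the largest difference between the siRNAs of any member over all 6 arrays. EIF5 (Entrez gene 1983) read 0.19, -0.57 and -0.19 with p65 siRNA at 1, 3 and 6 h. With RPS3 siRNA it read 0.26, 0.72 and 0.70. The 2 groups did not overlap: the lowest RPS3 siRNA value, at 1 h, stood above the highest p65 siRNA value, also at 1 h, by 0.07, and the gap was 1.30 at 3 h and 0.89 at 6 h. The means were -0.19 ± 0.38 and 0.56 ± 0.26 (SD, n = 3 each), a difference of 0.75 with an SE of 0.24, or 1.68-fold. The unadjusted p was 0.015 and the limma p adjusted over all features was 1. Every RPS3 siRNA array lay above every p65 siRNA array for 2 members, EIF5 and EIF2AK3, where 4.56% of all features did, so 2 of 37 is close to the background. With either siRNA taken alone, EIF5 did not pass, with limma adjusted p-values of 0.922 and 0.523.

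EIF5 was read by 2 probes, which lay close together wherever both had a value. They read -0.51 and -0.64 with p65 siRNA at 3 h, and both read 0.70 with RPS3 siRNA at 6 h. With RPS3 siRNA at 1 and 3 h only 1 of them had a value. On that probe alone the values at 1 h were 0.24 with p65 siRNA and 0.26 with RPS3 siRNA. The gap at 1 h was therefore smaller on it than on the mean of the probes. The difference between the siRNAs was 0.53 within the first series of ID numbers (p65 siRNA at 1 h, RPS3 siRNA at 3 h) and 0.86 within the second. It was 0.67 without RPS3 siRNA at 3 h, where that of LARS1 was larger at 0.77, and 0.75 without p65 siRNA at 6 h, where that of LARS1 was 0.78.

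The other start-site factors stayed close to the control. EIF1AX, which opens the small subunit for scanning, had means of 0.11 and 0.06 with p65 and RPS3 siRNA. EIF2S1 and EIF2S2, the alpha and beta subunits of eIF2, had means of -0.10 and 0.11 with p65 siRNA and of 0.09 and -0.03 with RPS3 siRNA. EIF2S1, the subunit phosphorylated under stress, was at its lowest with p65 siRNA at 3 h (-0.32) and at its highest with RPS3 siRNA at 6 h (0.35). The measured subunits of eIF2B, which exchanges GDP for GTP on eIF2, were EIF2B1 and EIF2B2, and their means were 0.12 and 0.11 with p65 siRNA and 0.21 and 0.19 with RPS3 siRNA. EIF2B1 read 0.52 with p65 siRNA at 1 h and -0.22 at 3 h, and its 3 probes had the same sign on each of those arrays.

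**Figure D2:**
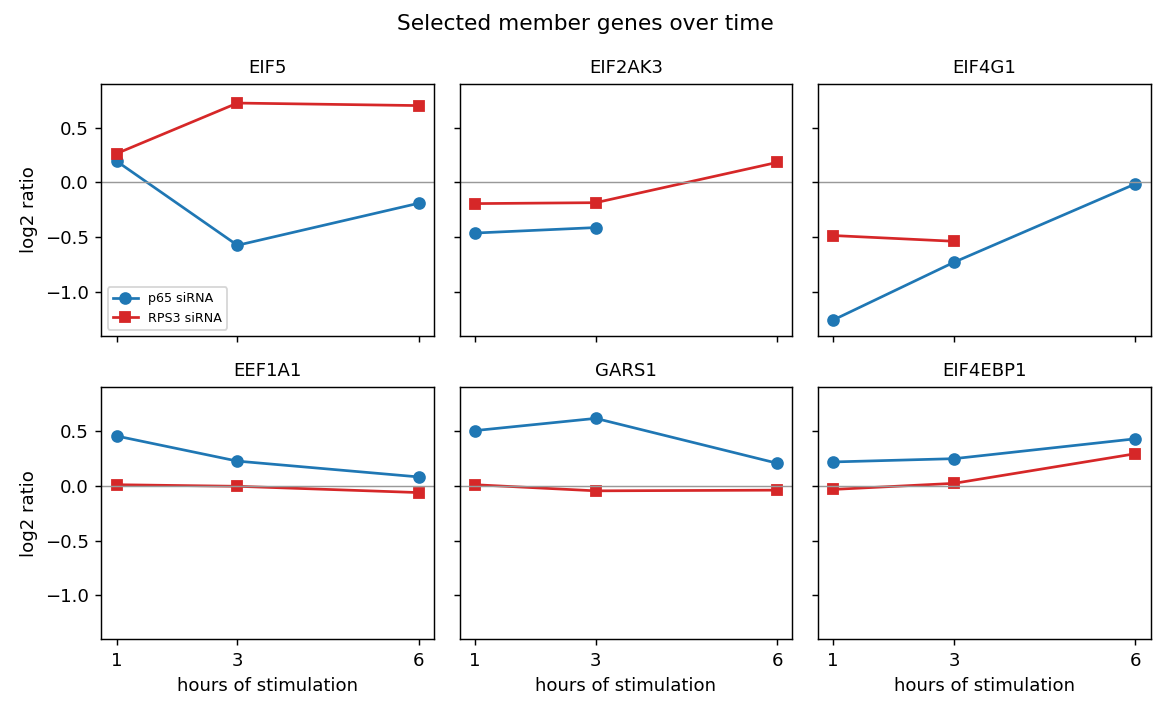
Log2 ratio of siRNA over control (vertical axis) against hours of stimulation for 6 member genes, with p65 siRNA as blue circles and RPS3 siRNA as red squares, each point 1 array. EIF5 lies higher with RPS3 siRNA at each time, GARS1 and EEF1A1, as means of their probes, lie higher with p65 siRNA at each time, and EIF4G1 lies below 0 wherever it was read.

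The eIF3 subunits fell into the same 2 sets by time and by siRNA. At 6 h EIF3B, EIF3C and EIF3M were the high members, and EIF3E and EIF3H the low ones. EIF3B, a scaffold subunit, read 0.06, -0.01 and 0.51 with p65 siRNA at 1, 3 and 6 h and 0.17, 0.10 and 0.71 with RPS3 siRNA. EIF3M read -0.34, -0.08 and 0.58 with p65 siRNA and 0.01, 0.09 and 0.82 with RPS3 siRNA. For both genes the 2 arrays at 6 h stood above the other 4. EIF3E read 0.47, -0.01 and -0.02 with p65 siRNA and 0.00, -0.04 and -0.33 with RPS3 siRNA. EIF3H read 0.26, 0.01 and -0.20 with p65 siRNA and 0.07, -0.09 and -0.41 with RPS3 siRNA. Both were highest with p65 siRNA at 1 h and lowest with RPS3 siRNA at 6 h, and both were higher with p65 siRNA at each time. EIF3B, EIF3M and, as the mean of its probes, EIF3C were higher with RPS3 siRNA at each time. For EIF3M the differences were 0.36, 0.17 and 0.24 at 1, 3 and 6 h.

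EIF3C read -0.11, -0.44 and 0.35 with p65 siRNA and 0.02, 0.07 and 0.47 with RPS3 siRNA, but its 4 probes disagreed. Their means ran from -1.03 to 0.43 with p65 siRNA and from -0.26 to 0.79 with RPS3 siRNA. The probe with the mean of -0.26 was lower with RPS3 siRNA at each time. The probe with the mean of -1.03 had values from both siRNAs at 1 h only. The rest were higher with RPS3 siRNA at each time. EIF3C also has a near-identical neighbour, EIF3CL, that a probe may read as well. EIF6, which keeps the large subunit from joining too early, had means of 0.05 and 0.16. As a group, the 6 genes of eIF3 and EIF6 had a median of 0.05 with p65 siRNA and 0.18 with RPS3 siRNA, and 0 passed.

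In the eIF4 group, EIF4G1 had the lowest mean with both siRNAs, and the highest was EIF4E2 with p65 siRNA (0.40) and EIF4H with RPS3 siRNA. EIF4G1, the scaffold that joins the cap-binding protein to eIF3, read -1.25, -0.73 and -0.01 with p65 siRNA at 1, 3 and 6 h. With RPS3 siRNA it read -0.48 and -0.54 at 1 and 3 h, and it had no value at 6 h. It was the lowest member mean with both siRNAs, -0.67 ± 0.62 (SD, n = 3) and -0.51 ± 0.04 (SD, n = 2), with limma adjusted p-values of 0.919 and 0.701. The value near 0 came at 6 h, the only 6 h value this gene has, and it was read by 1 probe. The mean was -0.37 with p65 siRNA without the array at 1 h, where that of EIF2AK3 was lower at -0.41, and -0.18 with RPS3 siRNA when the time point entered the fit as a block. EIF4H, which stimulates the helicase eIF4A, read 0.17, -0.23 and 0.97 with p65 siRNA and 0.33, 0.09 and 0.90 with RPS3 siRNA. Its mean with RPS3 siRNA was 0.44 ± 0.41 (SD, n = 3; limma adjusted p = 0.701), set mainly by 6 h: without that array the mean was 0.21. At 6 h with RPS3 siRNA its 2 probes read 0.36 and 1.43.

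EIF4E, the cap-binding protein, was read by 4 probes that gave one sign on 3 of the 6 arrays. All 4 were above 0 with p65 siRNA at 1 h, where their mean was 0.39. All 4 were below 0 on both 6 h arrays, where the means were -0.19 and -0.28. EIF4G2, a relative of EIF4G1 used in cap-independent initiation, was above 0 on every array, from 0.00 with RPS3 siRNA at 6 h to 0.36 with p65 siRNA at 1 h. EIF4E2, a cap-binding homologue, read 1.31 with p65 siRNA at 3 h and between -0.16 and 0.56 on its other 4 arrays, with no value for RPS3 siRNA at 6 h. EIF4E2 rests on 1 probe on every array but p65 siRNA at 1 h.

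Among the inhibitors and kinases, EIF4EBP1 stood higher and EIF2AK3 lower with p65 siRNA. EIF4EBP1, which blocks EIF4E until mTOR phosphorylates it, read 0.22, 0.25 and 0.43 with p65 siRNA at 1, 3 and 6 h and -0.03, 0.02 and 0.29 with RPS3 siRNA. Its mean with p65 siRNA was 0.30 ± 0.11 (SD, n = 3; limma adjusted p = 0.919), and p65 siRNA was the higher of the pair at each time although the groups overlapped. EIF2AK3, the eIF2 kinase PERK of the endoplasmic reticulum, read -0.46 and -0.41 with p65 siRNA at 1 and 3 h, with no value at 6 h. With RPS3 siRNA it read -0.19, -0.18 and 0.18. The groups did not overlap, and the difference was 0.37 with an SE of 0.20 (limma adjusted p = 1), but the array missing from p65 siRNA is the one at the time when RPS3 siRNA was highest.

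EIF2AK2 was highest with RPS3 siRNA at 6 h, at 0.54, and its other values lay between -0.06 and 0.22. EEF2K, which inactivates eEF2, was higher with RPS3 siRNA at each time. It read 0.51, 0.38 and 0.06 with RPS3 siRNA and 0.32, -0.06 and 0.02 with p65 siRNA.

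The elongation factors EEF1A1, as the mean of its probes, and EEF1B2 were higher with p65 siRNA at each time. EEF1A1, which carries charged tRNA to the ribosome, read 0.45, 0.22 and 0.08 with p65 siRNA at 1, 3 and 6 h and 0.01, -0.01 and -0.06 with RPS3 siRNA. By these means all p65 siRNA arrays stood above all RPS3 siRNA arrays, as for GARS1, while 5.25% of all features had their RPS3 siRNA arrays below all p65 siRNA arrays. The difference was -0.27 with an SE of 0.16 (limma adjusted p = 1). EEF1B2, the exchange factor that recharges EEF1A1, read 0.53, 0.05 and 0.18 with p65 siRNA and 0.07, -0.01 and 0.05 with RPS3 siRNA. Its groups overlapped, since p65 siRNA at 3 h lay below RPS3 siRNA at 1 h.

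Most of the 9 probes of EEF1A1 were above 0 at 1 and 3 h, and they spread most at 6 h. With p65 siRNA at 1 h 8 of 9 were above 0, and at 3 h all 8 that had a value lay between 0.20 and 0.26. With RPS3 siRNA at 1 h they ran from -0.28 to 0.07, and 8 of 9 were above 0. At 3 h they ran from -0.49 to 0.16 with a median of 0.09, and 7 of 9 were above 0. At 6 h they ran from -0.37 to 1.34 with p65 siRNA, where 6 of 9 were below 0 and their median was -0.33, and from -0.42 to 1.14 with RPS3 siRNA, where 7 of 9 were below 0. The median with RPS3 siRNA at 6 h was -0.30. Taken by medians, p65 siRNA at 6 h was therefore below every RPS3 siRNA array, the groups overlapped and the direction at 6 h turned. The p65 siRNA mean was then 0.13 and the difference -0.18. EEF1A1 has many near-identical pseudogene copies, and which of these a probe reads was not tested.

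EEF1D, another subunit of the exchange complex, and EEF2KMT, a methyltransferase of eEF2, had means of 0.08 and -0.03 with p65 siRNA and of 0.10 and 0.22 with RPS3 siRNA. The 3 probes of EEF1D were all above 0 on both 6 h arrays and all below 0 with p65 siRNA at 3 h and RPS3 siRNA at 1 h.

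**Figure D3:**
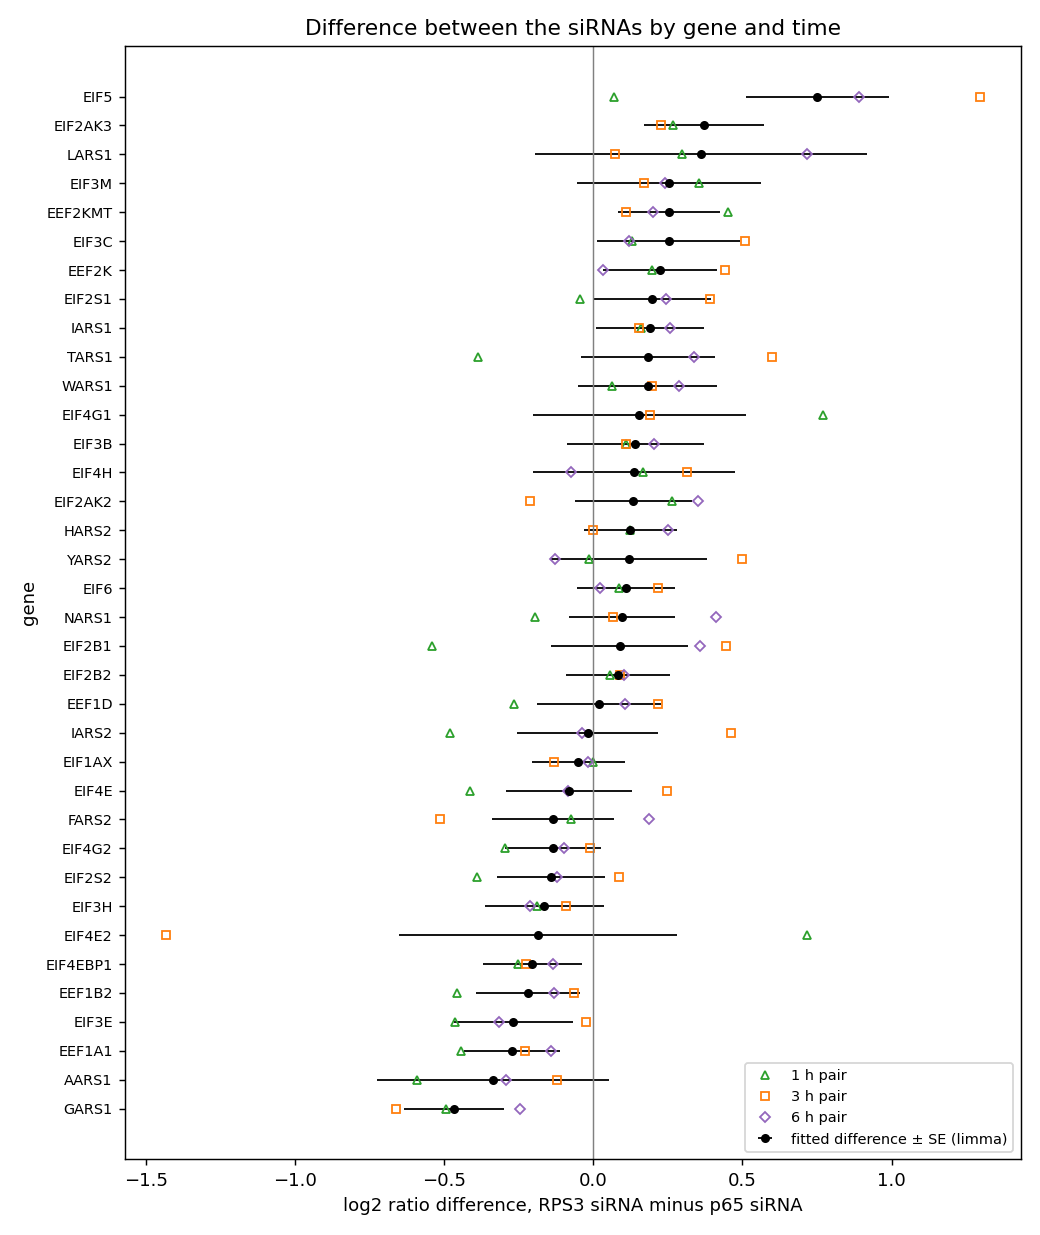
Difference in log2 ratio between RPS3 siRNA and p65 siRNA (horizontal axis) for 36 member genes, with the fitted difference and its SE from limma in black and the pair of arrays at each time as coloured open symbols. EIF5 is at the top at 0.75 and GARS1 at the bottom at -0.47, and the SE of the difference had a median of 0.201.

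The synthetases of the cytosol showed no common direction. GARS1 (Entrez gene 2617), which charges tRNA with glycine in both compartments, had the highest mean with p65 siRNA of any member and the lowest difference. It read 0.50, 0.61 and 0.20 with p65 siRNA at 1, 3 and 6 h and 0.01, -0.05 and -0.04 with RPS3 siRNA. The means were 0.44 ± 0.21 and -0.03 ± 0.03 (SD, n = 3 each), and the difference was -0.47 with an SE of 0.17, an unadjusted p of 0.024 and a limma adjusted p of 1. Of its 3 probes, 1 read 1.62 with p65 siRNA at 3 h, where the other two read 0.05 and 0.17, and it had no value on 3 arrays. With only the probes that had values on all 6 arrays, the difference was -0.32 and the p65 siRNA mean 0.29, with the same signs. GARS1 then no longer had the highest p65 siRNA mean, since EIF4EBP1 was at 0.30, or the lowest difference, since AARS1 was at -0.33.

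AARS1 and LARS1, for alanine and leucine, moved most between arrays. AARS1, read by 1 probe, read -0.45, -0.23 and 0.59 with p65 siRNA at 1, 3 and 6 h and -1.04, -0.35 and 0.30 with RPS3 siRNA. It was lower with RPS3 siRNA at each time, with a difference of -0.33. That difference was 0.10 within the first series of ID numbers and -0.55 within the second. Neither series has the same times for both siRNAs, and the AARS1 values rose with time. Without the RPS3 siRNA array at 1 h the difference was 0.00. LARS1 read -0.56, -0.77 and 0.59 with p65 siRNA and -0.26, -0.70 and 1.30 with RPS3 siRNA. Its 2 probes disagreed: the lower one, with means of -1.07 and -0.65, had no value on either 6 h array, so the high values at 6 h come from the other probe alone. The LARS1 difference of 0.36 turned to -0.23 without the RPS3 siRNA array at 6 h.

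NARS1, for asparagine, had the highest mean of the synthetases with RPS3 siRNA and was even over time. It read 0.29, 0.36 and 0.40 at 1, 3 and 6 h, a mean of 0.35 ± 0.05 (SD, n = 3; limma adjusted p = 0.618). With p65 siRNA it read 0.49, 0.29 and -0.02. IARS1, for isoleucine, was above 0 on 5 of 6 arrays as the mean of its probes. By these means it lay 0.15 to 0.26 higher with RPS3 siRNA at each time. TARS1, for threonine, had means of -0.04 and 0.14. For IARS1 with RPS3 siRNA at 1 h, 1 of 6 probes read 1.25, and another, at 0.67, had a value on that array only. The median of the 6 was 0.21, and the probe median with p65 siRNA at 1 h was 0.29. Taken by medians, the direction at 1 h therefore turned.

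WARS1, for tryptophan, stood out by the agreement of its 4 probes. They lay between 0.69 and 0.80 with RPS3 siRNA at 6 h and between 0.38 and 0.51 with p65 siRNA at 6 h. On the 4 earlier arrays WARS1 lay between -0.11 and 0.17. The 2 arrays at 6 h were therefore the highest with each siRNA, and RPS3 siRNA was the higher of the pair at each time.

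The mitochondrial synthetases lay at or below 0 at 6 h. FARS2, HARS2, IARS2 and YARS2, for phenylalanine, histidine, isoleucine and tyrosine, read -0.22, -0.25, -0.29 and -0.33 with p65 siRNA at 6 h. With RPS3 siRNA at 6 h they read -0.04, 0.00, -0.33 and -0.46, where the 2 probes of HARS2 lay on opposite sides of 0 at -0.27 and 0.27. All 4 were below 0 on both arrays, with HARS2 at the line on the second, while 51.4% and 50.1% of all features were above 0 there. Of the 7 cytosolic enzymes, 3 were below 0 with p65 siRNA at 6 h, with TARS1 lowest at -0.23, and 1 with RPS3 siRNA. At 1 h 3 of the 4 mitochondrial enzymes were above 0 with each siRNA, and the exceptions were HARS2 (-0.04) and IARS2 (-0.13). Their means over the 3 times were small, from -0.09 to 0.12.

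The amino acid response element did not sort the synthetases by siRNA. The 6 with the core had a median of 0.02 with p65 siRNA, 0.09 with RPS3 siRNA and 0.11 for the difference, and the 4 without it 0.03, 0.02 and 0.05. The single genes were farther apart than these medians, from -0.47 for GARS1 to 0.19 for IARS1 in the difference, both of which carry the core. The 3 factors with a pyrimidine start had a median difference of -0.22 and the 17 without it one of 0.14, with EIF3M on the other side from EEF1A1 and EEF1B2 at 0.26. These are descriptions of a few genes with no test.

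**Figure D4:**
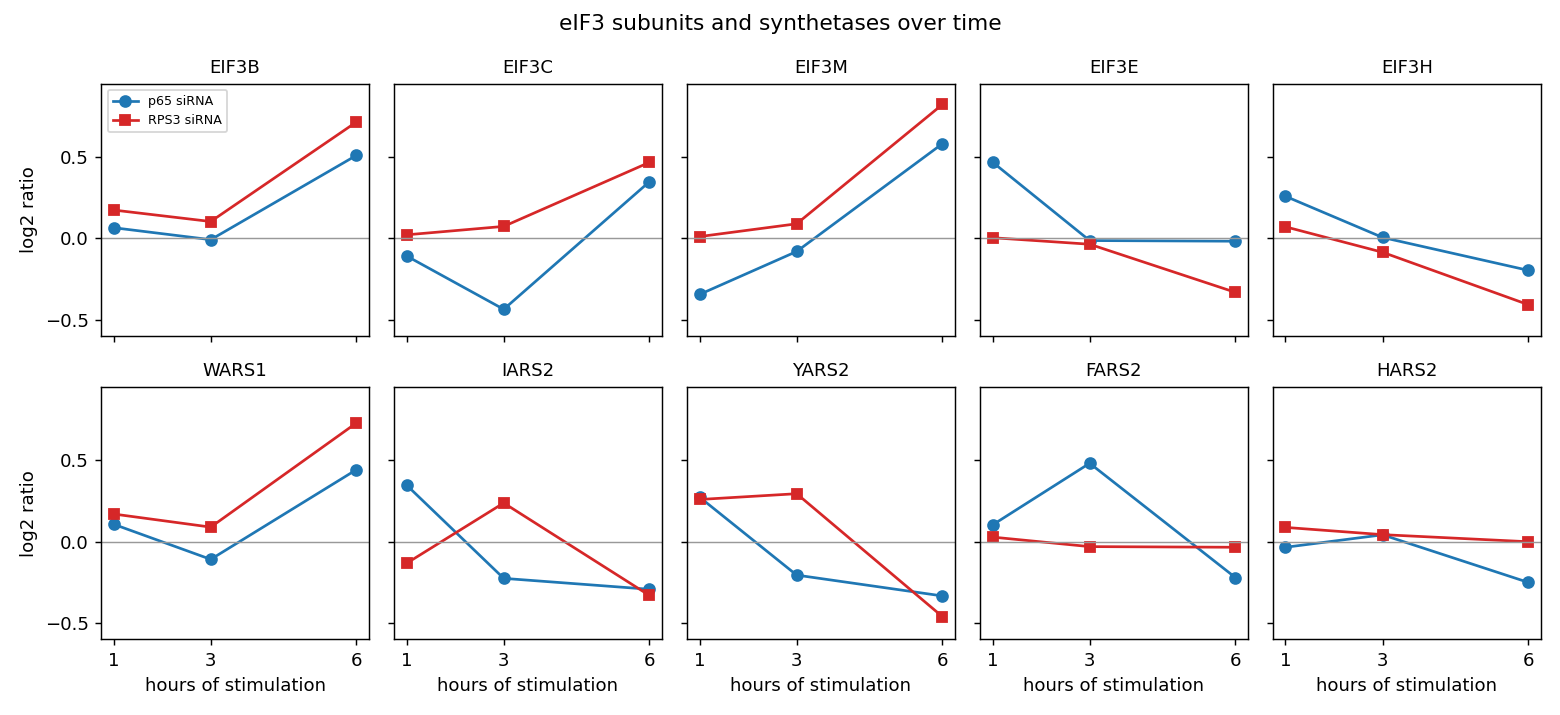
Log2 ratio of siRNA over control (vertical axis) against hours of stimulation for 5 eIF3 subunits, WARS1 and the 4 mitochondrial synthetases, with p65 siRNA as blue circles and RPS3 siRNA as red squares, each point 1 array. EIF3B, EIF3C, EIF3M and WARS1 are highest at 6 h with both siRNAs, and EIF3H and the mitochondrial enzymes are lowest there.

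A common slope per hour was fitted over both siRNAs. It was above 0 for 18 members and below 0 for 19, where 49.5% and 50.5% of all features were. The members were therefore close to the background in this count. Their median was -0.03, against a median of 0.00 over all features. At an unadjusted p under 0.05, 5 members had a positive slope, AARS1, EIF3M, LARS1, EIF4G1 and EIF3B, where 12.1% of all features did. For 3 it was negative, YARS2, EIF3H and IARS1, where 7% did. The slope of LARS1 was 0.29 for the mean of its probes. Its 2 probes taken singly gave 0.21 and -0.10, the second without a value at 6 h. The slope of IARS1 was -0.08 for the mean of its probes. It lay between -0.06 and -0.04 for the single probes read on all 6 arrays. AARS1 had a slope of 0.24 per hour with an SE of 0.04, and EIF3M one of 0.18 with an SE of 0.03, both with a limma adjusted p of 0.189. YARS2 had -0.13 with an SE of 0.04, and EIF3H -0.09 with an SE of 0.03, with limma adjusted p-values of 0.195 and 0.206. All 4 mitochondrial synthetases had a negative slope, from -0.13 to -0.03. Without the p65 siRNA array at 1 h, 2 members passed, with 301 of all features. They were AARS1 at 0.27 (limma adjusted p = 0.0418) and EIF4E2 at -0.39 (limma adjusted p = 0.0492). In that fit EIF4E2 rested on 1 probe with no value for RPS3 siRNA at 6 h. Its slope over all arrays was -0.04 with an SE of 0.15. The 2 arrays at 6 h correlated at 0.688 over all probes and had the most blanks, 14.8% and 15.1%, and the part of either in the slopes was not tested.

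**Figure D5:**
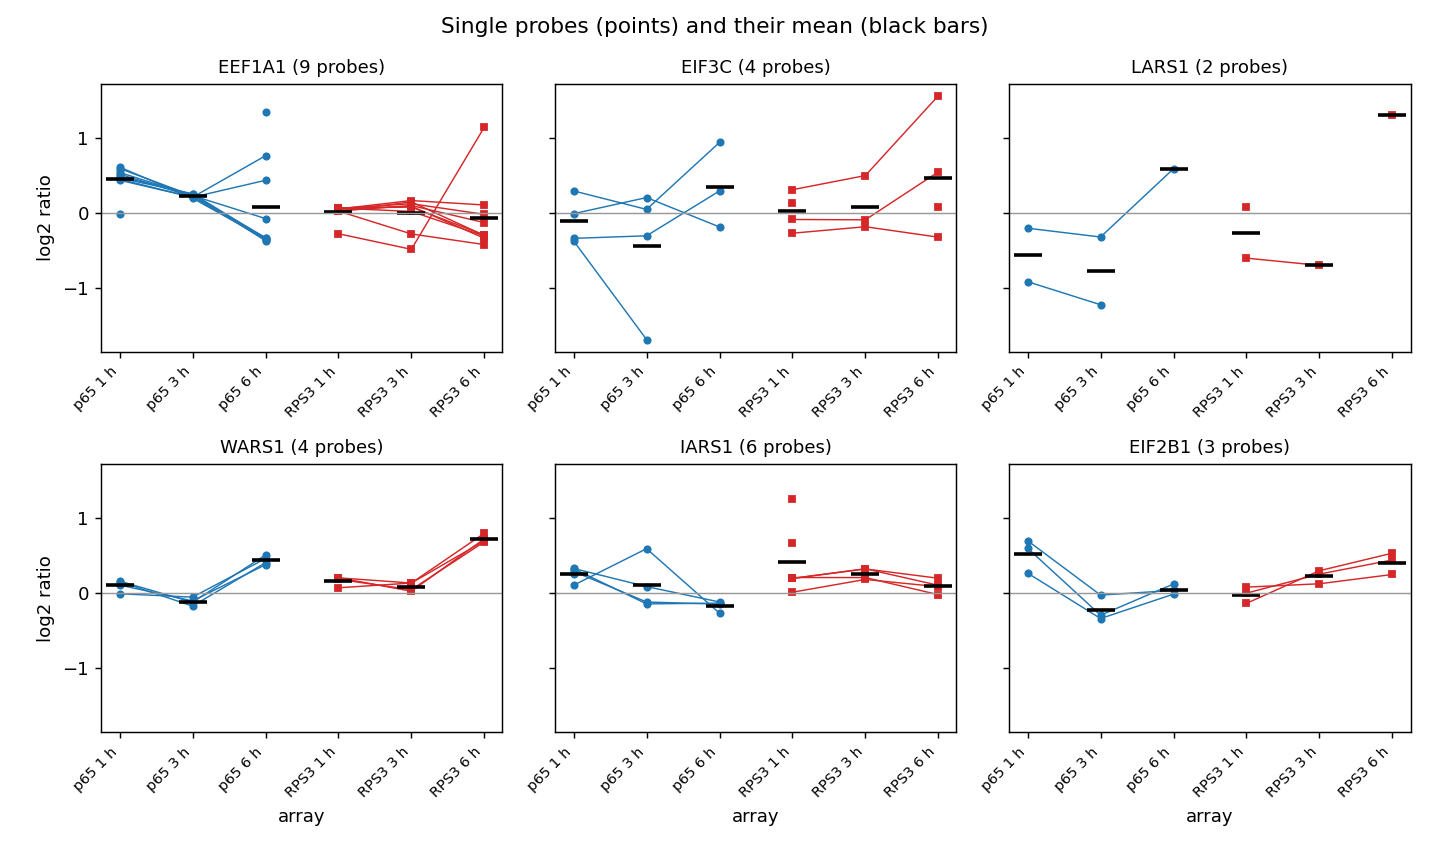
Log2 ratio of each single probe (points, with lines joining the arrays of 1 siRNA where values are consecutive) on the 6 arrays for 6 member genes with several probes, and their mean as black bars. The probes of WARS1 lie together on every array, those of EEF1A1 spread from -0.37 to 1.34 with p65 siRNA at 6 h, and only 1 probe of LARS1 has a value at 6 h.

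Between the siRNAs, the members as a group leaned slightly towards RPS3 siRNA. The difference was above 0 for 22 of 37, with a median of 0.10, where 49.4% of all features were above 0 with a median of 0.00. It kept 1 sign at every time for 14 members above 0 and 8 below, against 15.1% and 17.4% of all features. Within the 2 series of ID numbers taken separately, 21 of the 37 had the same sign of the difference in both, 11 above and 10 below. The share over all features was not counted, and neither series has the same times for both siRNAs, so this count carries little weight. Leaving out RPS3 siRNA at 6 h moved the median difference to -0.02.

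Other genes of protein synthesis were described from lists of known function. Among 13 further translation factors tested, 8 means were above 0 with each siRNA, with medians of 0.03 and 0.01, and 0 passed. The extremes were HBS1L, a ribosome rescue factor, at -1.12 with p65 siRNA and -0.65 with RPS3 siRNA (no value at 6 h), and TUFM, the mitochondrial elongation factor Tu, at 0.74 with RPS3 siRNA. TUFM read 1.17 and 2.15 on the 6 h arrays of p65 and RPS3 siRNA and between -0.54 and 0.04 on the other 4. EPRS1, a synthetase outside the symbol rule, had means of -0.12 and -0.15, and AIMP1, a scaffold of the synthetase complex, 0.03 and 0.17.

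The genes of the ATF4 and amino acid response mostly gave lower values with RPS3 siRNA. Of 18 tested, 13 had a mean above 0 with p65 siRNA (median 0.06) and 5 with RPS3 siRNA (median -0.11). Among all features, 55.8% and 54.1% were above 0. Of the 18, 16 were lower with RPS3 siRNA, with a median difference of -0.18, where 50.6% of all features were lower. The median difference of the list was -0.28, -0.10 and -0.15 at 1, 3 and 6 h, so it was largest on the pair at 1 h. For the 11 synthetases the difference was above 0 in 7, with a median of 0.12, where 49.4% of all features were above 0. Within the response list, 0 passed in any comparison. The largest difference was that of MTHFD2, a mitochondrial folate enzyme, at -0.52, with no value for p65 siRNA at 3 h. ASNS, which makes asparagine, had the highest mean of the list with both siRNAs, 0.38 and 0.22, and was above 0 on all 6 arrays.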

How the data were processed

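The authors deposited 1 log ratio per probe and array, read here as log2 of Cy5 over Cy3, that is siRNA over control. The values state neither base nor direction. The direction follows the dyes in the labels, and the RPS3 probe was far below 0 on the RPS3 siRNA arrays alone. Their range, -7.613 to 9.52, leaves no room for base 10, and with a natural log all sizes would grow when turned into log2. How spots were scanned, corrected, blanked and normalized is not given in the sources used here. Each array was centred on its median, probes of 1 symbol in the platform annotation were averaged, and features with values on at least 2 arrays of each siRNA were kept. Group means, their difference and a common slope over time were fitted to all 6 arrays with limma 3.58.1 in R 4.3.3 (lmFit, eBayes), a missing array being dropped for that feature. P-values were adjusted by Benjamini-Hochberg over 8797 features, with a threshold of 0.05. Testing a ratio against 0 ignores the spread of the control and keeps any dye effect common to all arrays. The fit was tested on simulated data. Alternatives were centring, filters, probe summaries, blocks and leaving out arrays. The members, role lists and pathway lists were chosen with earlier results of these data known. Members given array by array were EIF5, the 4 highest and 4 lowest means of each comparison among genes with 1 sign on every array, the 3 steepest slopes each way, and genes whose probes disagree; other genes given by array were chosen after their values were seen.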

Additional observations from a re-analysis of the deposited data

How the results depend on the processing

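No paired analysis was possible by replicate number because the labels give none; the time point was used as a block instead. With the time point as replicate block, 1 feature passed for RPS3 siRNA and 1 for the difference, with 0 members past the adjusted threshold. At an unadjusted limma p under 0.05 with RPS3 siRNA, 8 members were above and 1 below in that fit. Of all 8797 features, 629 were above and 523 below there. Their number also rose, from 678 without the block to 1152 with it. For RPS3 siRNA 1 feature passed also with quantile normalization and without both 6 h arrays, where the member median was 0.05325. Quantile normalization moved the median difference to 0.02237, and testing each probe alone gave 12 features for the mean of all 6 arrays. Leaving out 1 array at a time gave 0 to 1 passing features for p65 siRNA and the mean of all 6 (1 without p65 siRNA at 1 h) and for RPS3 siRNA (1 without RPS3 siRNA at 3 h), and 0 to 301 with 0 to 2 members for the slope. The member median then ran from 0.023 (without p65 siRNA at 1 h) to 0.1196 for p65 siRNA, from 0.05325 to 0.1205 for RPS3 siRNA, from -0.01733 to 0.1078 for the difference and from -0.03859 to 0.01462 for the slope. Signs turned for EIF5 with p65 siRNA (-0.3817 to 0.00175, without the p65 siRNA array at 3 h) and, in the difference, for AARS1 (-0.6658 to 0.004, without RPS3 siRNA at 1 h), LARS1 (-0.2332 to 0.7807) and EIF3M (-0.001917 to 0.5202), both without RPS3 siRNA at 6 h; the cause was not tested. The EIF5 difference stayed between 0.5601 and 0.9436 and that of GARS1 between -0.5841 and -0.3797. Signal over background is unknown, and 6 arrays limit the precision.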
